A study of Mus musculus with 4 samples.

Results

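The 59 genes described here encode translation initiation and elongation factors, the proteins that start and extend protein chains on the ribosome. They were taken by name from the 15002 genes measured in every tumour: all symbols of the Eif1 to Eif6 series and the Eef1 and Eef2 series, with the kinases, exchange factors and binding proteins that share those symbols. The X- and Y-linked copies of Eif2s3 and all pseudogene rows were left out. The levels come from single-cell RNA profiles of 4 mouse medulloblastomas, a tumour of the cerebellum. All 4 mice were untreated, were harvested at postnatal day 16 and carried hGFAP-Cre and SmoM2 with floxed alleles of the kinase genes, Prkaa1fl/fl and Prkaa2fl/fl. In this model hGFAP-Cre, a recombinase driven by the human GFAP promoter in neural stem and progenitor cells, switches on SmoM2, an active form of the Hedgehog receptor component Smoothened. The same recombinase acts on floxed Prkaa1 and Prkaa2, which encode the catalytic subunits of AMP-activated protein kinase. All tumours share this genotype, so no level below compares it with another one; tumours with intact Prkaa1 and Prkaa2 were not analysed here.

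Initiation begins when eIF2, carrying the initiator tRNA, joins the small ribosomal subunit together with eIF1, eIF1A, eIF3 and eIF5. The cap-binding complex of eIF4E, the helicase eIF4A and the scaffold eIF4G then brings in the mRNA, and the eIF4E-binding proteins hold eIF4E back unless mTORC1, a growth-signalling kinase, phosphorylates them. During elongation eEF1A delivers aminoacyl-tRNA, the eEF1B subunits recharge eEF1A with GTP, and eEF2 moves the ribosome along. AMP-activated protein kinase is known to act on this machinery by restraining mTORC1 and by activating eEF2 kinase, which inhibits eEF2.

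Of 6734 deposited barcodes, 3222 had at least 500 unique molecular identifiers (UMIs, each a tag on 1 captured transcript), with 566 to 1083 such barcodes per tumour. After 72 barcodes with markers of another cell type and 1 with fewer than 3 distinct markers of its state were left out, 3149 cells fell into 4 states by the share of their UMIs on marker genes: 689 in G2/M, 725 in S phase, 956 in neither and below the neuronal limit (called non-dividing here), and 779 neuronal. Counts were summed per tumour and state. The 16 sums held 111130 to 368067 UMIs each, and levels are given as counts per 1000000 UMIs of a sum (CPM). A list of Hedgehog-responsive progenitor genes took 0.164% to 0.221% of UMIs in neuronal sums and 0.306% to 0.507% in all others. Marker lists of microglia, endothelial, mural, fibroblast, oligodendrocyte and astrocyte cells each took at most 0.101% in any sum. Prkaa1 was counted at 16, 3, 3 and 5 UMIs and Prkaa2 at 10, 5, 10 and 13 UMIs in the assigned cells of tumours 1 to 4. A 3′ tag outside the deleted part checks nothing about the deletion, and whether these tags lie outside it was not tested.

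Tumours 1 and 2 stood apart from tumours 3 and 4. The median mitochondrial share of UMIs in kept barcodes was 10.2% and 11.6% in tumours 1 and 2 and 2.33% and 1.79% in tumours 3 and 4. The labels name no batch that goes with this split. Calls are therefore also given without each tumour in turn and, after the account of the members, in each pair of tumours alone.

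The mRNAs of many ribosomal proteins and several elongation factors begin with a terminal oligopyrimidine (TOP) tract, a C followed by a run of pyrimidines, through which mTORC1 controls their translation. Start-site windows of 47 of the 59 members were found in RefSeq (build GRCm38.p6). The 30 bases around the annotated start (15 before it, then 15 from the start onward) are printed for a selection of the members described below, made after results were seen, and for Eif3f, the member with a tract at the start itself. A C followed by at least 4 pyrimidines is in capitals where it lay within 5 bases of the start; of several such Cs in 1 run, the one nearest the start was taken. Only the sense strand was read.
Eef1a1: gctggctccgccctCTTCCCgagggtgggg
Eef1b2: tggacctgcagttccgccggaagtagccga
Eef2: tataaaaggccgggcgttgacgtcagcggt
Eif3a: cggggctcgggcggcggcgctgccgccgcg
Eif3f: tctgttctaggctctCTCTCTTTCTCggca
Eif2s1: cgctgggttgggcgaagcgcacgctgagga
Eif2s2: cacgtaaggttggctttactgtacgcctgc
Eif4g1: cgccagcgcagctccgCCCTCTgcgccggt
Eif5a: aagtaccgaagccgggatggttgtaatccg
The Eif3f window lies at chr7:108934400-108934429 on the plus strand and the Eef1a1 window at chr9:78481710-78481739 on the minus strand. The Eef1b2 window is chr1:63176816-63176845 on the plus strand, the Eef2 window chr10:81176616-81176645 on the plus strand and the Eif3a window chr19:60790679-60790708 on the minus strand. Those of the eIF2 subunits are chr12:78862057-78862086 on the plus strand for Eif2s1 and chr2:154892892-154892921 on the minus strand for Eif2s2, and that of Eif4g1 is chr16:20672712-20672741 on the plus strand. The Eif5a window, the first of 6 in RefSeq, is chr11:69921944-69921973 on the minus strand. Eif3f was the single member with such a C exactly at the annotated start, 2.13% of the 47, against 3.01% of 27025 genes and 20% of 60 cytosolic ribosomal-protein genes. With a tolerance of 5 bases the tract was found in 12 of 47 members (25.5%), 21.2% of all genes and 46.7% of ribosomal-protein genes. The C nearest the start lay 1 base before it in Eef1a1 and 1 base after it in Eif4g1. In Eef1a1 and Eif3f 4 more pyrimidines come just before that C, and in Eif4g1 none (0). The windows of Eef1b2, Eef2, Eif3a, Eif2s1, Eif2s2 and Eif5a held no such tract at these positions. These letters depend on where RefSeq places the start.

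Translation factor transcripts together took a smaller share of UMIs in neuronal cells than in the other states of the same tumour. The share was 0.882%, 1.001%, 1.17% and 1.32% in neuronal sums of tumours 1 to 4, against 1.17%, 1.16%, 1.55% and 1.70% in S-phase sums. It was 1.06%, 1.07%, 1.502% and 1.59% in G2/M sums and 0.969%, 1.10%, 1.57% and 1.65% in non-dividing sums. In each of the 4 tumours the neuronal share was the lowest of the 4 states, while the ranges over tumours overlapped. The difference from neuronal sums was 0.303 ± 0.103 percentage points in S phase, 0.215 ± 0.114 in G2/M and 0.228 ± 0.160 in non-dividing cells (SD, n = 4); it carries no test, since the members were chosen with results known. The share on ribosomal-protein genes moved with it, at 1.58% to 2.93% in neuronal and 1.86% to 6.46% in the other sums.

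Of the 59 members, 46 passed the filter on low counts and were tested with edgeR's quasi-likelihood test, which compared the sums of 2 states within tumours and adjusted p-values by Benjamini-Hochberg over all genes; a call is an adjusted p under 0.05. In G2/M against neuronal cells 11 of the 46 rose and 0 fell, where 18.5% of the 4724 tested genes that are not state markers rose and 16.9% fell. In S phase 13 rose and 1 fell, beside 21.1% and 17.5% of those genes. In non-dividing cells 8 rose and 0 fell, beside 12.4% and 10.9%. The shares of members that rose (23.9%, 28.3% and 17.4%) were thus near those of all genes, and the shares that fell were below them. The median log2 fold change of the tested members was 0.26, 0.41 and 0.35, and 0.03, 0.04 and 0.05 over all those genes. In either direction 11, 14 and 8 members were called, beside 35.4%, 38.6% and 23.3% of all genes. DESeq2 called 7, 9 and 5, beside 28.5%, 31.2% and 16.9%, and edgeR with no tumour term 0, 1 and 0 (1, 5 and 3 members at an unadjusted p under 0.05), beside 11.5%, 13.2% and 2.77%. These 3 comparisons share the neuronal sums, so their calls are not independent of each other.

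**Figure D1:**
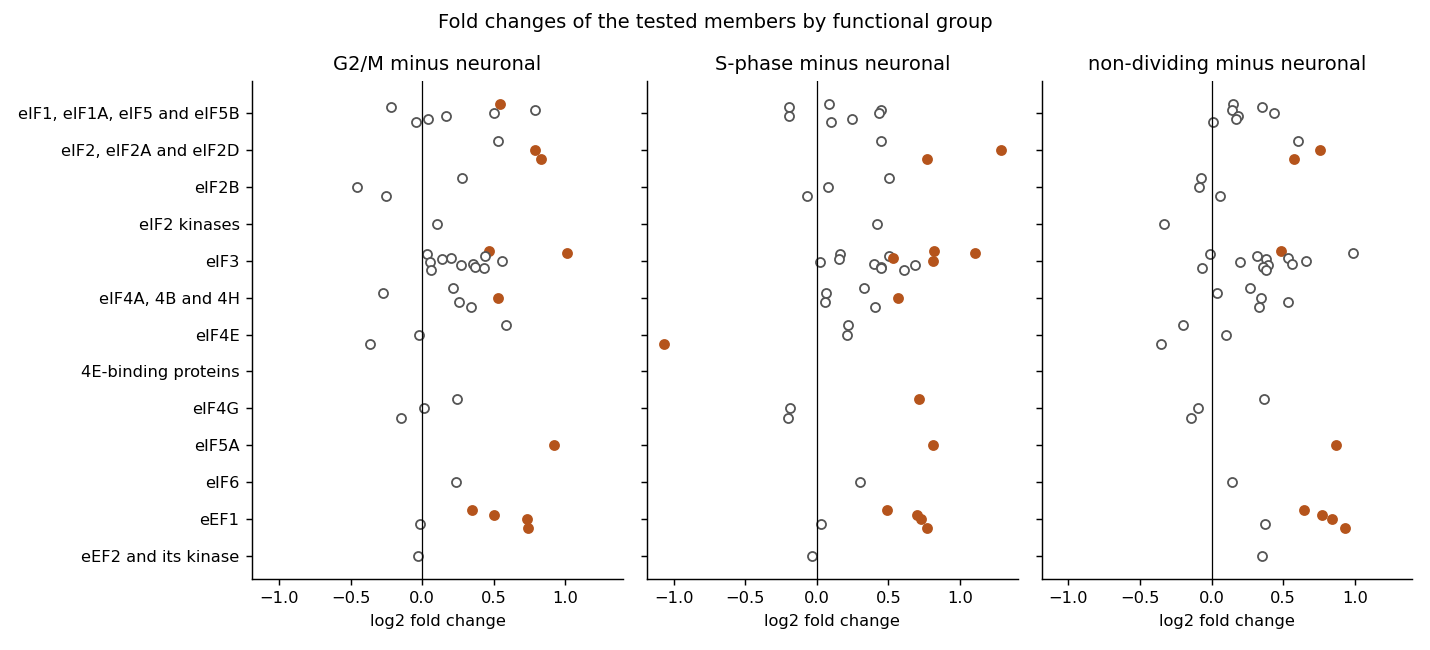
Log2 fold change against neuronal cells (x axis) for each of the 46 tested members (points), arranged by functional group (y axis), in G2/M, S-phase and non-dividing cells; filled points passed the test. The filled points lie right of 0 except for Eif4e3 in S phase, and the eIF4E-binding proteins have no point because none passed the filter.

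The elongation factor eEF1 had 4 of its 5 tested members (80%) called higher in each of the 3 states. Beside this, 18.5%, 21.1% and 12.4% of all genes rose in G2/M, S-phase and non-dividing cells. Eef1a1, which encodes the carrier of aminoacyl-tRNA, was at 399.54, 724, 721 and 1115 CPM in neuronal sums of tumours 1 to 4 and at 450.5, 886, 1503 and 1909 CPM in non-dividing sums. In S phase it was at 529, 786, 1194 and 1796 CPM and in G2/M at 542, 681, 1089 and 1459 CPM. Non-dividing sums exceeded neuronal sums in each tumour, while the ranges of both states overlapped. The log2 fold change against neuronal cells was 0.64 ± 0.13 (adjusted p = 0.000213, higher in 4 of 4 tumours) in non-dividing cells, 0.49 ± 0.14 (adjusted p = 0.00317, higher in 4 of 4 tumours) in S phase and 0.35 ± 0.14 (adjusted p = 0.0404, higher in 3 of 4 tumours) in G2/M by edgeR's quasi-likelihood test (± SE here and below). The G2/M call was lost without tumour 1, 3 or 4 and with DESeq2, and the S-phase call without tumour 4.

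The 3 subunits of eEF1B, the exchange complex that reloads eEF1A, moved the same way. Eef1b2 was at 278, 418, 229 and 259 CPM in neuronal, 450.5, 557, 415 and 507 in non-dividing, 562, 573, 316 and 475 in S-phase and 452, 523, 333 and 356 in G2/M sums. Unlike Eef1a1, its level was not higher in tumours 3 and 4. Its log2 fold change was 0.77 ± 0.15 (adjusted p = 0.000107, higher in 4 of 4 tumours) in non-dividing and 0.70 ± 0.16 (adjusted p = 0.000245, higher in 4 of 4 tumours) in S-phase cells. In G2/M it was 0.50 ± 0.16 (adjusted p = 0.00988, higher in 4 of 4 tumours), and that call was lost without tumour 1. Eef1g, the structural subunit, was at 121, 113, 273 and 306 CPM in neuronal and 159.7, 249, 592 and 554 CPM in non-dividing sums. Its S-phase sums were at 221, 245, 419 and 494 CPM and its G2/M sums at 191, 225, 387 and 511 CPM. Neuronal sums were the lowest in each tumour, with log2 fold changes of 0.93 ± 0.17 (adjusted p = 3.68e-05, higher in 4 of 4 tumours) in non-dividing, 0.77 ± 0.18 (adjusted p = 0.000395, higher in 4 of 4 tumours) in S-phase and 0.74 ± 0.18 (adjusted p = 0.000653, higher in 4 of 4 tumours) in G2/M cells.

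Eef1d, the other exchange subunit, was at 101, 99.6, 61.6 and 95.1 CPM in neuronal sums and at 141, 101, 180.0 and 193 CPM in G2/M sums. These 2 groups did not overlap, by a gap between 101.1 CPM (20 UMIs, neuronal, tumour 1) and 101.3 CPM (18 UMIs, G2/M, tumour 2) that is far below counting error. It was the only such case among tested members for G2/M above neuronal cells (1 of 46, where 7.94% of all genes did so). Its log2 fold change was 0.74 ± 0.27 (adjusted p = 0.0256, higher in 4 of 4 tumours) in G2/M, 0.72 ± 0.27 (adjusted p = 0.0275, higher in 3 of 4 tumours) in S phase and 0.84 ± 0.26 (adjusted p = 0.0148, higher in 3 of 4 tumours) in non-dividing cells. All 3 calls were lost without tumour 3, without tumour 4 and with DESeq2, and that in non-dividing cells also without tumour 2. Eef1e1, a scaffold gene of the tRNA synthetase complex that carries the eEF1 name, did not pass in any state (0.03 ± 0.38, adjusted p = 0.962 in S phase). Eef1a2, the isoform of mature neurons and muscle, had 1, 1, 0 and 0 UMIs in the neuronal sums of tumours 1 to 4 and 1 UMI each in the G2/M and non-dividing sums of tumour 1. Neuronal cells here thus held at most 1.25% of their Eef1a1 and Eef1a2 UMIs on Eef1a2, with an upper exact (Clopper-Pearson) 95% limit of 1.73% to 6.77% per tumour; such limits cover counting error only.

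**Figure D2:**
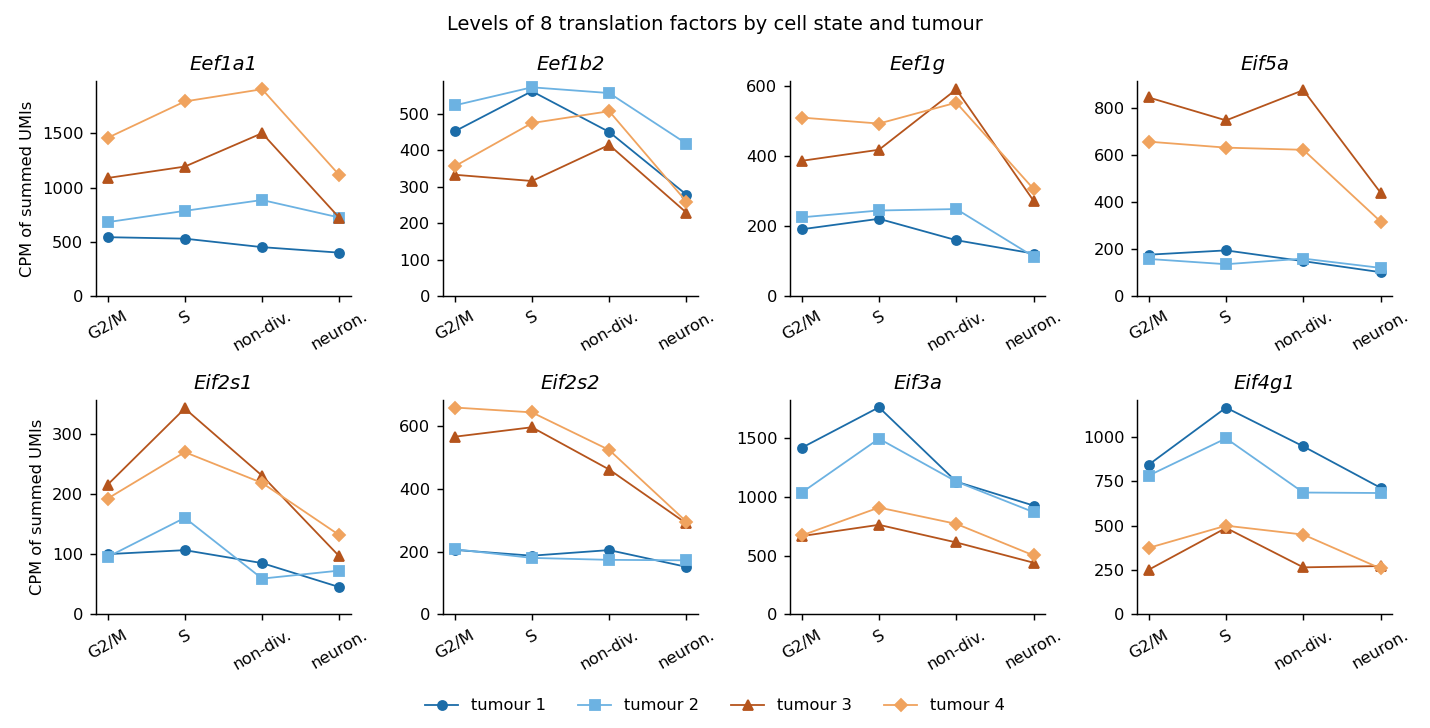
CPM (y axis, from 0) of 8 members in the summed UMIs of each state (x axis) for each tumour; lines join the sums of 1 tumour. In each tumour, neuronal sums were the lowest for Eef1b2, Eef1g, Eif5a and Eif3a, while Eif3a and Eif4g1 were higher in tumours 1 and 2 and Eif5a and Eif2s2 in tumours 3 and 4.

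Eef2, which encodes the translocase, was not called in any state. It was at 212, 418, 281 and 649.9 CPM in neuronal, 348, 354, 439 and 415 in S-phase, 231, 355, 495 and 473 in G2/M and 354, 453, 653 and 528 in non-dividing sums. The neuronal sum was the lowest of the 4 states in tumours 1 and 3 and the highest in tumour 4, and the S-phase fold change was -0.03 ± 0.18, adjusted p = 0.911, not called. In non-dividing cells it was 0.35 ± 0.17 (adjusted p = 0.141, higher in 3 of 4 tumours), with an unadjusted p of 0.0476. The transcript of its inhibitor eEF2 kinase, Eef2k, was below the filter, with 12, 14, 8 and 9 UMIs over the 4 tumours in G2/M, S-phase, non-dividing and neuronal cells. The ratio of pooled CPM in S phase to neuronal cells was 1.32 with an exact 95% interval of 0.532 to 3.45, which covers counting error only, so a difference of this size was not detectable at this depth.

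Both tested subunits of eIF2, the carrier of initiator tRNA, rose in all 3 states. Eif2s1, the alpha subunit that stress kinases phosphorylate, was at 45.5, 73.0, 96.7 and 132 CPM in neuronal and 107, 161, 343 and 270.4 CPM in S-phase sums. It was at 100.45, 95.7, 216 and 193 CPM in G2/M and 85.5, 59.7, 231 and 219 CPM in non-dividing sums. Its S-phase level exceeded the neuronal level in each tumour, by 1.29 ± 0.24 (adjusted p = 1.57e-05, higher in 4 of 4 tumours) on the log2 scale, the largest called fold change among tested members. In G2/M the fold change was 0.79 ± 0.25 (adjusted p = 0.00988, higher in 4 of 4 tumours) and in non-dividing cells 0.75 ± 0.25 (adjusted p = 0.0201, higher in 3 of 4 tumours); both calls were lost without tumour 1 or tumour 3, and the latter also without tumour 4 and with DESeq2. Eif2s2, the beta subunit, was at 152, 173, 290.2 and 296 CPM in neuronal and 206, 208, 567 and 660.2 CPM in G2/M sums. Its S-phase sums were at 187, 180.3, 597 and 645 CPM and its non-dividing sums at 205, 174, 462 and 525 CPM. Tumours 3 and 4 were apart from tumours 1 and 2 in every state. The fold changes were 0.83 ± 0.18 (adjusted p = 0.000191, higher in 4 of 4 tumours) in G2/M, 0.77 ± 0.18 (adjusted p = 0.000523, higher in 4 of 4 tumours) in S phase and 0.58 ± 0.18 (adjusted p = 0.0151, higher in 4 of 4 tumours) in non-dividing cells. The S-phase call was lost without tumour 4, and the non-dividing call without tumour 3 or 4 and with DESeq2.

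The guanine exchange factor eIF2B and the 4 kinases that phosphorylate eIF2 had no gene called in these tests. Of the 5 eIF2B subunit genes 3 were tested and 0 were called. Of all genes 35.4%, 38.6% and 23.3% were called in either direction in G2/M, S-phase and non-dividing cells. With so few genes tested, no difference from that share is read. Among them was Eif2b4 at 147, 79.7, 141 and 137 CPM in neuronal and 161, 90.2, 109.8 and 126 CPM in S-phase sums (-0.07 ± 0.25, adjusted p = 0.85). Of the kinases, Eif2ak1, the heme-regulated kinase, passed the filter; it was at 70.8, 86.3, 26.4 and 68.7 CPM in neuronal and 60.3, 58.0, 54.9 and 151 CPM in S-phase sums (0.42 ± 0.32, adjusted p = 0.311). Tumour 4 alone stood high in S phase. The kinase of double-stranded RNA (Eif2ak2), of endoplasmic reticulum stress (Eif2ak3) and of amino acid shortage (Eif2ak4) had 10, 48 and 46 UMIs in all assigned cells and were not tested.

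The eIF3 complex, which holds the initiation factors on the small subunit, had 13 of its 14 genes tested. Of these 2 rose in G2/M (Eif3a and Eif3b), 4 in S phase (Eif3a, Eif3b, Eif3e and Eif3g) and 1 in non-dividing cells (Eif3a). These are 15.4%, 30.8% and 7.69% of the 13, beside 18.5%, 21.1% and 12.4% of all genes that rose. Eif3a, the largest core subunit, was at 926, 869.9, 439.7 and 502 CPM in neuronal and 1761, 1494, 762 and 909 CPM in S-phase sums. It was at 1416, 1036, 666 and 671 CPM in G2/M and 1129, 1129.5, 612 and 769.8 CPM in non-dividing sums. Each tumour had its highest level in S phase and its lowest in neuronal cells. The fold change was 0.82 ± 0.12 (adjusted p = 4.60e-07, higher in 4 of 4 tumours) in S phase, 0.48 ± 0.13 (adjusted p = 0.0032, higher in 4 of 4 tumours) in non-dividing cells and 0.47 ± 0.13 (adjusted p = 0.00254, higher in 4 of 4 tumours) in G2/M, and no call was lost by leaving out a tumour or with DESeq2.

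Eif3b, another core subunit, was at 25.3, 59.8, 17.6 and 21.1 CPM in neuronal, 65.3, 50.7, 54.0 and 70.6 in G2/M and 93.7, 103, 20.6 and 56.6 in S-phase sums. The fold change was 1.10 ± 0.40 (adjusted p = 0.022, higher in 4 of 4 tumours) in S phase and 1.01 ± 0.39 (adjusted p = 0.039, higher in 3 of 4 tumours) in G2/M; both calls were lost without tumour 1 or 4 and with DESeq2, and that in G2/M also without tumour 3. Eif3g, which works in scanning, was at 50.6, 86.3, 167 and 116 CPM in neuronal and 100.42, 51.5, 281 and 296 CPM in S-phase sums, a fold change of 0.81 ± 0.26 (adjusted p = 0.0111, higher in 3 of 4 tumours) that was lost without tumour 4 and with DESeq2. Eif3e was at 55.6, 86.3, 185 and 232 CPM in neuronal and 107, 83.7, 275 and 339.6 CPM in S-phase sums. Its fold change was 0.54 ± 0.21 (adjusted p = 0.0408, higher in 3 of 4 tumours), and the call was lost without tumour 1, 3 or 4 and with DESeq2. The other 9 tested eIF3 genes did not pass in S phase. Their fold changes were above 0 over the 4 tumours, and in tumours 1 and 2 alone 5 of them (Eif3d, Eif3f, Eif3h, Eif3i and Eif3k) were below 0. Eif3c, with 708, 671, 501 and 639 CPM in neuronal and 729.7, 850.0, 604 and 673 CPM in S-phase sums, was nearly level (0.16 ± 0.13, adjusted p = 0.354). Eif3j1 and Eif3j2 are near-identical copies, so the split of counts between them is uncertain.

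Among the cap-binding factors the scaffold Eif4g1 rose and Eif4e3 fell in S phase. Eif4g1 was at 713, 684, 273 and 259 CPM in neuronal and 1165, 992, 487 and 500.01 CPM in S-phase sums. S phase was higher in each tumour, by 0.71 ± 0.15 (adjusted p = 7.97e-05, higher in 4 of 4 tumours), and the call held without each tumour in turn and with DESeq2. Eif4g2, an eIF4G relative that lacks the eIF4E site, was at 475, 638, 1161 and 1109.6 CPM in neuronal and 509, 605, 988 and 843 CPM in S-phase sums (-0.18 ± 0.13, adjusted p = 0.271). Eif4g3 was at 748, 511, 149 and 328 CPM in neuronal and 716, 483, 192 and 211 CPM in S-phase sums (-0.20 ± 0.18, adjusted p = 0.403). The scaffold genes thus had S-phase fold changes of either sign, of which that of Eif4g1 was called. Eif4e, the main cap-binding protein, was at 45.5, 39.8, 106 and 122 CPM in neuronal and 40.2, 51.5, 172 and 119.5 CPM in S-phase sums (0.22 ± 0.28, adjusted p = 0.574). Eif4e3, an atypical cap-binding relative, was the single member called lower against neuronal cells over the 4 tumours. It was at 70.8, 119.5, 176 and 137 CPM in neuronal and 60.3, 64.4, 54.9 and 53.5 CPM in S-phase sums. The highest S-phase value lay below the lowest neuronal value, where 8.47% of all genes did so, but the gap, from 64.4 CPM (10 UMIs, tumour 2) to 70.8 CPM (14 UMIs, tumour 1), is within counting error. Its fold change was -1.07 ± 0.29 (adjusted p = 0.00297, higher in 0 of 4 tumours).

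The helicase eIF4A is encoded by 2 near-interchangeable genes, Eif4a1 and Eif4a2, of which Eif4a2 is the more common in adult brain. Eif4a1 was at 152, 146, 729.9 and 956 CPM in neuronal and 201, 225, 1002 and 1019 CPM in S-phase sums and was not called (0.33 ± 0.15, adjusted p = 0.0749). Eif4a2 was at 147, 106, 141 and 195 CPM in neuronal and 348, 135, 144 and 69.2 CPM in S-phase sums (0.07 ± 0.26, adjusted p = 0.871). Of the UMIs on both genes, Eif4a2 took 49.2%, 42.1%, 16.2% and 17.0% in neuronal sums of tumours 1 to 4 and 48.4%, 33.9%, 10.6% and 10.9% in G2/M sums. It took 63.4%, 37.5%, 12.6% and 6.36% in S-phase and 51.6%, 37.5%, 12.8% and 12.2% in non-dividing sums, so that in tumour 1 both states were above the neuronal share and in the other tumours below it. The share was higher in neuronal than in G2/M cells in 4 of 4 tumours, by 5.14 ± 3.13 percentage points (SD, n = 4); an exact two-sided paired permutation test gave p = 0.25 adjusted over 2 tests, and the unadjusted p was the smallest that 4 tumours allow. With at least 1000 UMIs per barcode, a mitochondrial share of at most 10% or raised state limits, the share was higher in neuronal cells in 3 of 4 tumours, by 8.73 ± 13.5, 7.16 ± 9.64 and 6.51 ± 7.13 percentage points. Tumour 3, tumour 1 and tumour 2, respectively, then went the other way. The difference between the pairs of tumours was larger than that between states. Eif4a3, a relative in the exon junction complex, was at 111, 73.0, 132 and 164 CPM in neuronal and 127, 161, 178 and 248 CPM in S-phase sums. Its fold change was 0.56 ± 0.22 (adjusted p = 0.033, higher in 4 of 4 tumours) in S phase and 0.53 ± 0.22 (adjusted p = 0.0467, higher in 4 of 4 tumours) in G2/M. The G2/M call was lost without each tumour in turn, the S-phase call without tumour 2, 3 or 4, and both with DESeq2.

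Eif5a, whose product relieves stalled ribosomes, rose in all 3 states. It was at 101, 119.5, 439.7 and 317 CPM in neuronal, 176, 158, 846 and 657 in G2/M, 194, 135, 748 and 632 in S-phase and 148, 159, 877 and 623 in non-dividing sums. Neuronal sums were the lowest in each tumour, and tumours 3 and 4 were far above tumours 1 and 2. The fold change was 0.92 ± 0.17 (adjusted p = 1.68e-05, higher in 4 of 4 tumours) in G2/M, 0.87 ± 0.17 (adjusted p = 7.75e-05, higher in 4 of 4 tumours) in non-dividing cells and 0.81 ± 0.17 (adjusted p = 0.000135, higher in 4 of 4 tumours) in S phase, and no call was lost without a tumour or with DESeq2. Eif6, which keeps the large subunit apart, was at 10.1, 46.5, 79.1 and 132 CPM in neuronal and 40.2, 25.8, 89.2 and 160.4 CPM in S-phase sums (0.30 ± 0.32, adjusted p = 0.48). Eif1, which guards start-codon choice, was at 182, 266, 1222 and 1168 CPM in neuronal and 171, 433, 2061 and 1562 CPM in G2/M sums. It was called in G2/M (0.54 ± 0.16 (adjusted p = 0.00474, higher in 3 of 4 tumours)), a call lost without tumour 3, and not in S phase (0.08 ± 0.16, adjusted p = 0.731). Eif5b, which joins the subunits, was at 986, 857, 501 and 687 CPM in neuronal and 1158, 837, 590.3 and 723 CPM in S-phase sums and was not called in any state (0.10 ± 0.13, adjusted p = 0.569 in S phase).

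Eif4ebp1, which encodes the first of the eIF4E-binding proteins, was nearly absent from neuronal cells. It was counted at 0, 2, 1 and 0 UMIs in the neuronal sums of tumours 1 to 4, against 10, 4, 12 and 29 in G2/M, 4, 3, 7 and 33 in S-phase and 2, 6, 2 and 17 in non-dividing sums. These are 50.2, 22.5, 108 and 78.8 CPM in G2/M and 0, 13.3, 8.79 and 0 CPM in neuronal sums. In G2/M each tumour had more UMIs than in neuronal cells, by 2 to 29. In tumour 2 in S phase and tumour 3 in non-dividing cells the excess was 1 UMI, and the 2 non-dividing UMIs of tumour 1 (11.4 CPM) lie below the neuronal limit given next. A count of 0 allows up to 15.2 CPM in tumour 1 and 15.9 CPM in tumour 4 (3 counts per sum). Pooled over tumours, the ratio to neuronal CPM was 13.9 in G2/M (exact 95% interval 4.53 to 69.7), 13.3 in S phase (4.27 to 66.7) and 6.74 in non-dividing cells (2.07 to 34.7). With 132 UMIs in all, the gene did not pass the filter. In the fit with no filter its adjusted p from edgeR was 9.91e-08, 2.19e-06 and 0.00903 in G2/M, S phase and non-dividing cells. Tumour 4 held 29 of the 55 G2/M, 33 of the 47 S-phase and 17 of the 27 non-dividing UMIs. Without it the pooled ratios were 8.21 (2.52 to 42.4), 4.79 (1.34 to 26.0) and 2.94 (0.758 to 16.6), the last with an interval that includes equal levels. Without tumour 2, which holds 2 of the 3 neuronal UMIs, they were 37.6 (6.46 to 1516), 35.9 (6.12 to 1451) and 15.7 (2.53 to 649.7). By contrast Eif4ebp2, the form known from neurons, had 34, 30, 39 and 31 UMIs in G2/M, S-phase, non-dividing and neuronal cells. Its pooled ratio was 0.835 in G2/M (0.498 to 1.40).

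**Figure D3:**
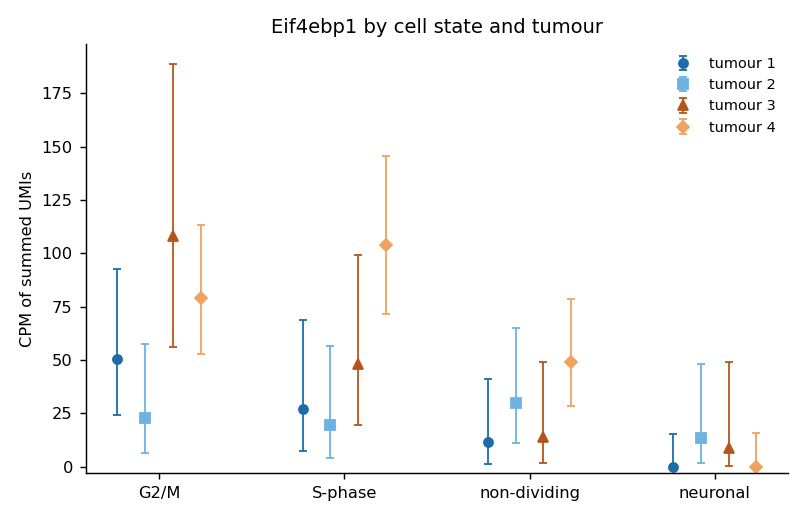
CPM of Eif4ebp1 (y axis) in each state (x axis) and tumour (symbols) with exact 95% Poisson intervals, which cover counting error only; for a sum at 0 the bar runs to the limit of 3 counts. The neuronal sums hold 3 UMIs in all, and the 4 G2/M sums hold 55.

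Dividing cells were then set against non-dividing cells outside the neuronal state. None of the 46 tested members was called by edgeR (0; 6 had an unadjusted p under 0.05, and DESeq2 gave 0 calls with 3 such members), beside 10.8% of all genes called in either direction by edgeR and 7.09% by DESeq2. The median log2 fold change was -0.003 for members and -0.04 for all genes. Eif4e had 0.60 ± 0.23, adjusted p = 0.0753, and was higher in dividing cells in 4 of 4 tumours. Eef2 had -0.38 ± 0.15 (adjusted p = 0.0755, higher in 0 of 4 tumours). In tumours 3 and 4 alone 4 members passed, beside 7.99% of all genes: Eif2s2 (0.38) and Eif1 (0.36) rose and Eef1a1 (-0.24) fell. The other was Eif4ebp1 (1.23), which entered that fit through the sums in which it is high, so nothing is read from its call.

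More members were called against neuronal cells in tumours 3 and 4 than in tumours 1 and 2. In tumours 1 and 2 alone, 1, 6 and 1 members were called in G2/M, S-phase and non-dividing cells, beside 20.5%, 21.7% and 8.65% of all genes. In tumours 3 and 4 alone, 12, 18 and 14 were called, beside 32.6%, 35.2% and 21.9%. Eif4ebp1 is among each of these 3 counts, again admitted by its high sums, and they are 11, 17 and 13 without it. In that pair 0, 3 and 1 of the called members were lower than in neuronal cells. Of the 11, 14 and 8 calls over 4 tumours, 9, 11 and 8 were also called in tumours 3 and 4 alone and 1, 5 and 1 in tumours 1 and 2 alone. How many calls of all genes were kept in each pair is not given here, so these counts are not read as particular to the members. In tumours 1 and 2 alone the sign was the same for 11, 13 and 8, the exception being Eef1d in S phase. Eef1b2, Eef1g, Eif2s1, Eif3a and Eif4g1 kept at least 1 call there, and the other 10 called members lost each of theirs. Among these, Eif4e3 was at -0.65 (adjusted p = 0.305) in S phase in tumours 1 and 2 and -1.51 (adjusted p = 0.000792) in tumours 3 and 4. In S phase Eef1a1 was at 0.19 (adjusted p = 0.542) in tumours 1 and 2 and 0.65 (adjusted p = 3.06e-06) in tumours 3 and 4. Eif2s2 was at 0.13 (adjusted p = 0.821) and 1.04 (adjusted p = 3.03e-06), and Eif5a at 0.52 (adjusted p = 0.295) and 0.85 (adjusted p = 3.16e-05). Eif3a, Eef1b2, Eef1g, Eif2s1 and Eif4g1 rose in S phase in each pair on its own. Eif4a2 was called by edgeR in each pair with opposite signs. It was higher in S phase than in neuronal cells in tumours 1 and 2 (0.85, adjusted p = 0.0427) and lower in tumours 3 and 4 (-0.92, adjusted p = 0.0222). Each of these calls rested mainly on 1 tumour. Tumour 1 was at 348 CPM in S phase and 147 in neuronal sums, and tumour 4 at 69.2 and 195. Tumour 2 was at 135 and 106, and tumour 3 was nearly level at 144 and 141.

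**Figure D4:**
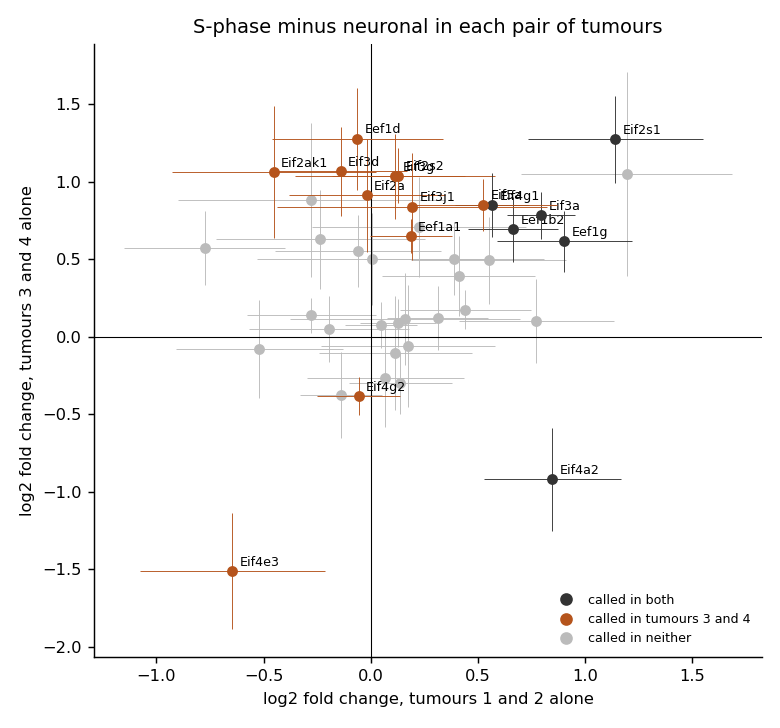
Log2 fold change of S-phase against neuronal cells in tumours 1 and 2 alone (x axis) and in tumours 3 and 4 alone (y axis) for members tested in both, with bars of 1 SE. Eif2s1, Eif3a, Eef1b2, Eef1g and Eif4g1 are called in both and lie at the upper right, and Eif4a2 lies at the lower right.

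The difference between the pairs was itself tested as the interaction of pair with the mean of G2/M and S phase against neuronal cells. None of 46 members was called (0 by edgeR, with 7 at an unadjusted p under 0.05, and 0 by DESeq2, with 4), beside 0.995% and 0.762% of all genes. The lowest adjusted p-values were those of Eif3f (1.15 ± 0.37, adjusted p = 0.113), Eif2s2 (0.91 ± 0.30, adjusted p = 0.127) and Eif3d (1.03 ± 0.37, adjusted p = 0.168). For Eif4a2 the interaction was -1.11 ± 0.40, adjusted p = 0.176 by edgeR, and for Eef1d it was 1.22 ± 0.46, adjusted p = 0.198. A difference between the pairs in the response of a member was therefore not shown, and the S-phase difference of Eif4a2 on its own was not tested.

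Levels themselves, pooled over the states of each tumour, differed between the pairs. Pooling weights each state by its UMIs, and the mix of states differed between tumours. Of 53 members with a mean of at least 20 CPM, 34 were higher in both of tumours 3 and 4 than in both of tumours 1 and 2, and 8 were lower, beside 42.7% and 32.8% of 7237 genes. As log2(CPM + 5), Eif1 was 2.48, Eif4a1 2.34, Eif5a 2.12 and Eef1e1 2.07 higher in tumours 3 and 4. Eif4g3 differed by -1.19, Eif4g1 by -1.18, Eif3a by -0.82 and Eif5b by -0.51. The members that were lower had longer transcripts, with a median of 5381.5 bases against 2196 bases for those that were higher. Over the 59 members the difference correlated with log transcript length at r = -0.54. At a mean of at least 20 CPM the correlation was r = -0.52 over the 53 members and r = -0.56 over 6631 genes with a length. Genes of 1 library share its preparation, so this is a description. Mitochondrial share, given above, moves with the same split, and its part in the level differences was not tested.

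**Figure D5:**
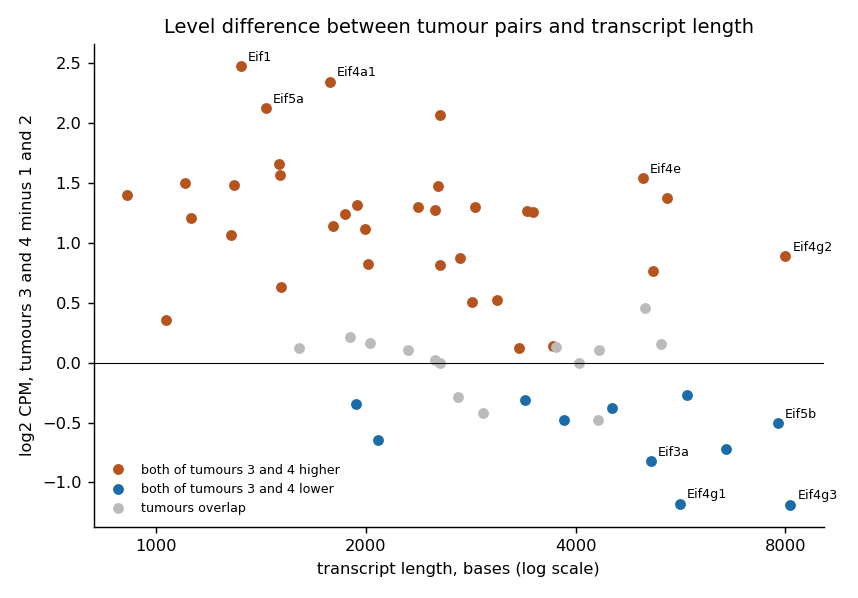
Difference in log2 CPM between tumours 3 and 4 and tumours 1 and 2 (y axis) against transcript length in bases (x axis, log scale) for the 59 members. Eif1, Eif4a1 and Eif5a, with short transcripts, lie at the top, and Eif4g1, Eif4g3, Eif3a and Eif5b, with long ones, lie below 0; Eif4e and Eif4g2 are long and lie above 0.

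Other genes of the translation pathway were read from a list of 46 regulators, poly(A)-binding proteins and release factors, of which 45 were in the tables and 26 passed the filter. Against neuronal cells 4 rose and 6 fell in G2/M, 5 rose and 6 fell in S phase, and 2 rose and 1 fell in non-dividing cells. The shares that rose (15.4%, 19.2% and 7.69%) and fell (23.1%, 23.1% and 3.85%) stand beside 18.5%, 21.1% and 12.4% of all genes that rose and 16.9%, 17.5% and 10.9% that fell. Pabpc1, the main poly(A)-binding protein, was at 910.3, 1096, 1240 and 1088 CPM in neuronal sums of tumours 1 to 4 and at 1754, 1752, 2423 and 2283 CPM in S-phase sums. S phase was above neuronal cells in each tumour without overlap (0.90 ± 0.12 (adjusted p = 2.90e-08, higher in 4 of 4 tumours)), as were 8.93% of all genes. The ribosome recycling factor Abce1 (1.01 ± 0.31, adjusted p = 0.00755), the release factors Etf1 (0.77 ± 0.24, adjusted p = 0.00873) and Gspt1 (0.72 ± 0.19, adjusted p = 0.00209) and Fmr1 (0.85 ± 0.19, adjusted p = 0.000279), which encodes an RNA-binding repressor, rose in S phase as well. The calls of Etf1 and Gspt1 were lost without tumour 4; those of Pabpc1, Abce1 and Fmr1 held without each tumour in turn and with DESeq2. In tumours 1 and 2 alone the S-phase calls of Etf1 and Gspt1 were lost, and that of Abce1 was lost in each pair alone and with raised state limits. Those of Fmr1 and Etf1 were lost with at least 1000 UMIs per barcode.

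Of the genes that fell, Pdcd4, whose product holds eIF4A back, was at 298, 345, 510.02 and 576 CPM in neuronal and 181, 206, 151 and 321 CPM in S-phase sums (-0.99 ± 0.17 (adjusted p = 7.90e-06, higher in 0 of 4 tumours)). Ddit4, an inhibitor of mTORC1 signalling, had -1.55 ± 0.32, adjusted p = 0.000118 and Cyfip2, a partner of the Fmr1 product, -2.68 ± 0.41, adjusted p = 5.65e-07. Paip1 (-0.62 ± 0.24, adjusted p = 0.0301) and Paip2 (-0.42 ± 0.17, adjusted p = 0.0462), which bind the poly(A)-binding protein, fell in S phase, and so did Dapk1 (-1.01 ± 0.38, adjusted p = 0.0299). The S-phase calls of Paip1 (without tumour 3 or 4), Paip2 (without tumour 1, 3 or 4) and Dapk1 (without tumour 1) were lost, all 3 also with DESeq2, while those of Pdcd4, Ddit4 and Cyfip2 held in these refits and in each pair of tumours alone. Tsc1, a subunit of the complex that restrains mTORC1, fell in G2/M (-0.97 ± 0.31, adjusted p = 0.0116), as did Mcts1 (-0.92 ± 0.31, adjusted p = 0.0154). The Tsc1 call was lost without tumour 2, in tumours 1 and 2 alone and with a mitochondrial share of at most 10%. The Mcts1 call was lost without tumour 1, in tumours 3 and 4 alone and with raised state limits. Pdcd4 (-0.70 ± 0.14, adjusted p = 0.00017) and Ddit4 (-1.39 ± 0.26, adjusted p = 8.34e-05) were also lower in dividing than in non-dividing cells, and Fmr1 (0.45 ± 0.15, adjusted p = 0.038) was higher; the Fmr1 call was lost without tumour 1, 2 or 4, in each pair of tumours alone and with DESeq2. The Pdcd4 and Ddit4 calls were lost in tumours 1 and 2 alone, where Ddit4 was at -0.71 (adjusted p = 0.32).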

How the data were processed

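UMI counts per gene and barcode were deposited by the authors in 1 table per tumour, as raw whole numbers with no normalization. STAR and the mm10 build are named in the submitters' processing notes; counting software, annotation and barcode filters are not given in the sources used here. Another 6 tables, holding 11203 cell columns, could be tied to none of the labelled samples and stayed out.

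Barcodes with at least 500 UMIs were kept. Cells were placed by the share of their UMIs on marker lists (at least 1.5% for G2/M, 1.0% for S phase and 2.0% for neuronal, with at least 3 distinct markers, the largest share relative to its limit deciding); 588 of 3222 kept barcodes (18.2%) lay within 20% of a limit, so the states are ranges rather than cell types. The limits were set after the marker shares had been seen. Barcodes with at least 4 distinct markers of another cell type were removed. No doublet caller was run; 48 barcodes met both a dividing and the neuronal limit. Tumours 2 and 4 share 1 barcode sequence.

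Counts were summed per tumour and state and tested with edgeR 4.0.16 in R 4.3.3 (TMM, filterByExpr, quasi-likelihood, tumour as a term, Benjamini-Hochberg over all genes). The states of a tumour come from the same animal; deviations of sums of the same tumour correlated at 0.48 to 0.76 across 4872 genes. On simulated counts for G2/M against neuronal cells (4860 genes, 200 changed), 93% of 2-fold and 99% of 4-fold changes were recovered. Of the calls 3.52% were false. For changes below 2-fold, as in most called members, recovery was not tested. These rates are not given by gene level, so none is read for a single member. Alternatives were DESeq2 1.42.0, other scalings, filters and state rules, leaving out tumours, and dropping the tumour term; state limits raised 1.5 times, library size scaling and totals without mitochondrial genes were added after seeing the data. The members and lists were chosen with earlier results of these data known. State markers were left out of the all-gene shares after seeing the data. Gene lengths are those of the longest basic protein-coding GENCODE M21 transcript, a choice made after another annotation level gave an implausibly short Eif4g2. Values per tumour are given for members called in any comparison, the member with most UMIs in each group, and a list of regulators; uncalled fold changes are printed for S phase against neuronal cells, a choice made after results were seen, and in the interaction for Eif4a2, Eef1d and the members with the lowest p, in dividing cells for Eif4e and Eef2 and in non-dividing cells for Eef2, picked likewise. Exact intervals are Clopper-Pearson or Poisson at 95% and cover counting error only.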

Additional observations from a re-analysis of the deposited data

Results flagged for a closer look

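Each group of 4 tumours was examined for a sample far from the others by Dixon's criterion. Of 136 groups 12 passed, where chance alone would give about 6.8 (1 in 20 groups) for continuous values. A group with a single sum above 0 passes by construction, and Eef1a2 enters both as CPM and as a share. The 12 cases are therefore not read as an excess. Eif2ak1 in S phase was at 151 CPM in tumour 4 and 54.9 to 60.3 CPM in the others. Eif4a3 in G2/M was at 245 CPM in tumour 4 and 135 to 153 CPM in the others. Eef1d was low in tumour 1 in non-dividing cells (79.8 CPM, others 184 to 199) and low in tumour 3 in neuronal cells (61.6 CPM, others 95.1 to 101). Eif2b4 was low in tumour 2 in G2/M (50.7 CPM, others 117 to 128) and in neuronal cells (79.7 CPM, others 137 to 147). The remaining cases rest on a few UMIs. Eef1a2 was at 5.02 CPM in G2/M and 5.70 CPM in non-dividing cells of tumour 1 and at 0 in the others, which makes its share of Eef1a1 and Eef1a2 UMIs 0.917% and 1.25%. Eif2ak2 was at 4.98 CPM in non-dividing cells of tumour 2 and 20.2 CPM in neuronal cells of tumour 1, and at 0 in the others.

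In 13 cases both of tumours 1 and 2 moved one way against neuronal cells and both of tumours 3 and 4 the other way; these differences were not tested singly. They were 5, 4 and 4 of the 59 members in G2/M, S-phase and non-dividing cells; of the 46 tested members they were 2, 4 and 3, beside 7.66%, 7.64% and 8.85% of tested genes. The values are the CPM difference in tumours 3 and 4 minus that in tumours 1 and 2. In G2/M it was 33.7 for Eif2ak1, -23.5 for Eif2ak3, -35.7 for Eif2b1, -56.3 for Eif4a2 and 23.7 for Eif4ebp2. In S phase it was 168 for Eif3f, 74.9 for Eif2ak1, 74.6 for Eif3i and -33.5 for Eif2b4. In non-dividing cells it was 165 for Eif3f, 125 for Eif5b, -54.6 for Eif4e2 and 20.2 for Eif4ebp2.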

How the results depend on the processing

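The count of members called depended most on the tumour term. With no replicate block, edgeR called 0, 1 and 0 members in G2/M, S-phase and non-dividing against neuronal cells, where the pairing by tumour gave 11, 14 and 8; the cause was not tested. The share of all genes called fell as well (11.5%, 13.2% and 2.77%, from 35.4%, 38.6% and 23.3%). DESeq2 called 7, 9 and 5 members, and barcodes of at least 1000 UMIs gave 3, 7 and 5. Tumours 1 and 2 alone gave 1, 6 and 1, and tumours 3 and 4 alone 14 in non-dividing cells and 4 for dividing against non-dividing cells (13 and 3 without Eif4ebp1), where upper-quartile scaling gave 1. At 1000 UMIs the calls lost were those of Eef1a1, Eef1d, Eef1g, Eif1, Eif2s1, Eif3a and Eif4a3 in G2/M, Eef1a1, Eef1d, Eef1g, Eif3e, Eif3g and Eif4a3 in S phase, and Eef1d, Eif2s1 and Eif2s2 in non-dividing cells; Eif3b was not tested there. Raised state limits lost Eif4a3 in G2/M and Eef1d, Eif3e and Eif3g in S phase, and the mitochondrial limit lost Eif3e and Eif3g in S phase and Eif2s2 in non-dividing cells. With no filter Eif3b and Eif4a3 in G2/M and Eif3e and Eif4a3 in S phase were lost. Leaving out each tumour in turn gave 5 to 13, 7 to 16 and 5 to 11 calls against neuronal cells and 0 to 1 for dividing against non-dividing cells. The lowest counts came without tumour 3 (5 in G2/M and 5 in non-dividing cells) and without tumour 4 (7 in S phase). The share of all genes called is not given for the refits by depth, by scaling and by left-out tumour. Their counts are therefore not read as particular to the members. The other alternatives kept each count within 1.5 times, and the interaction had 0 calls in each alternative run; it was not run for a single pair of tumours. Of S-phase fold changes printed above, some changed sign. In tumours 1 and 2 alone the value was -0.0634 for Eef1d, 0.14 for Eef2, -0.28 for Eif1, -0.45 for Eif2ak1 and 0.0676 for Eif2b4, and in tumours 3 and 4 alone it was -0.92 for Eif4a2. With at least 1000 UMIs it was -0.0975 for Eif1 and -0.11 for Eif4a2, and with a mitochondrial share of at most 10% it was -0.23 for Eif4a2. With raised state limits it was 0.11 for Eif2b4, -0.00236 for Eif4a2 and -0.0542 for Eif4e. Without each tumour in turn it ranged from -0.239 to 0.302 for Eef2, -0.0212 to 0.146 for Eif1, -0.138 to 0.683 for Eif2ak1, -0.142 to 0.00319 for Eif2b4 and -0.521 to 0.647 for Eif4a2, with the sign changing without tumour 4 for Eef2, Eif1 and Eif2ak1, without tumour 3 for Eif2b4 and without tumour 1 or 2 for Eif4a2. Of these, the Eif4a2 value in tumours 3 and 4 was called. A further 30 uncalled fold changes of the same members, not printed, were refitted 497 times in all; 22 of them changed sign at least once (76 refits), and 0 of those refits were called. Depth limits the 13 members below the filter, of which 3 had 10 UMIs or fewer.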
